A study of Mus musculus with 10 samples.

Results

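The 81 genes described here encode the proteins of the cytosolic ribosome. They are the protein-coding rows of the gene count table whose names follow the patterns Rpl or Rps with a number, Rplp0 to Rplp2, or Rpsa, and which had at least 10 counts in at least 5 of 10 libraries. The table held 25050 genes, 83 of which matched the names. Rpl3l and Rpl39l had 10 or more counts in 1 and 0 libraries and were not kept. Of the 81 members, 33 belong to the small subunit and 48 to the large subunit. All 81 passed the count filter applied to the whole table, which left 14526 genes for testing.

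The libraries were made from polyadenylated RNA of whole mouse brain. The study compared 5 wildtype mice (Abcc5+/+) with 5 mice lacking Abcc5 (Abcc5-/-), all on the FVB/NJ background. Abcc5 encodes an export pump of the ATP-binding cassette family. Neither the age nor the sex of the mice is given in the labels, nor is the altered part of the gene. Each library is labelled as 1 brain, so the p-values below measure the spread between brains.

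The ribosome translates messenger RNA into protein. Its small subunit reads the codons and its large subunit joins the amino acids. Each ribosome holds 1 copy of nearly every ribosomal protein, the acidic stalk proteins being the exception, and the genes are scattered over the genome yet produced in balance. Their messenger RNAs typically begin with a C followed by a run of pyrimidines, the terminal oligopyrimidine tract, through which the mTOR kinase controls their translation. In the brain, ribosomal protein transcripts are found in every cell type and also in axons and dendrites.

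The starts of 6 members are shown because the tract is the sequence feature that this gene family is best known for. They are RefSeq sequences of build GRCm38.p6, each from 10 bases before the annotated transcript start to 20 bases after it, on the sense strand. Capitals mark a run of at least 5 letters that opens with C and goes on with C or T only, where its first 5 letters lie between 5 bases before and 10 bases after the start.
Rpl28: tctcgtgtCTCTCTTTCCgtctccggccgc
Rplp2: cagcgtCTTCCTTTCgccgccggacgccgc
Rps26: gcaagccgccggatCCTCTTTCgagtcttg
Rpl22l1: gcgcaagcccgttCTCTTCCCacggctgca
Rpl13: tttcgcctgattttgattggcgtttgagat
Rpl7l1: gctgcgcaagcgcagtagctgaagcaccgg
These lie at chr7:4792955-4792984 (Rpl28, plus strand), chr7:141447641-141447670 (Rplp2, plus), chr10:128626487-128626516 (Rps26, minus), chr3:28805498-28805527 (Rpl22l1, plus), chr8:123102340-123102369 (Rpl13, plus) and chr17:46782637-46782666 (Rpl7l1, minus). Rpl28, Rplp2, Rps26 and Rpl22l1 hold such a run, and the windows of Rpl13 and Rpl7l1 do not. RefSeq starts were at hand for 60 members, with 71 starts in all, since some genes have several. The run was found on the sense strand in 31 of the 71 member windows (43.7%) and in 18.3% of all 32851 windows. At the annotated start itself, 18.3% of member windows and 2.51% of all windows began with it. An annotated start can lie a few bases off the one used in brain.

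The libraries held 7731294 to 23588335 counts. Wildtype 1, knockout 2 and knockout 4 held at least 19795743 each and are called the deeper libraries, and the other 7 held at most 11479995. Abcc5 itself was counted at 311 ± 12.6 CPM (counts scaled to a common library size with TMM factors, a trimmed mean of ratios; SD, n = 5) in wildtype and 219 ± 5.95 CPM in knockout brains, and no knockout library reached the lowest wildtype value. Knockout 3 stood apart from all other libraries. The summed level of 8 cerebellar marker genes was 87.3 CPM in it and 962 to 1133 CPM in the other 9, with Gabra6 at 1.58 CPM and Pcp2 at 0.396 CPM. For the members, test calls and the median difference between genotypes are therefore also given without that library, as are calls in some gene lists. Correlations, spreads and levels per kilobase use all 10 libraries and were not recomputed without it. The neuronal, astrocyte and oligodendrocyte markers that define brain tissue were present in all 10 libraries. In whole tissue, fewer cells of a type and less RNA per cell cannot be told apart.

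Ribosomal protein transcripts were abundant but very unequal. Per kilobase of transcript, 76 of 80 members lay at or above the median of all tested genes, which was 9.78 CPM per kb, and the median member stood at 87.4 CPM per kb. The quartiles of the members were 53.4 and 139 CPM per kb. The small subunit genes had a median of 98.9 and the large subunit genes one of 80.8 CPM per kb. These levels use 1 transcript per gene from the GENCODE M21 annotation, so a gene whose brain transcript is shorter is understated.

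The highest member was Rplp1, an acidic protein of the stalk that recruits translation factors, at 320 CPM per kb. Rps15, Rps21 and Rps29 led the small subunit at 290, 275 and 235 CPM per kb. Rpl4, which lines the peptide exit tunnel, and Rpl8 followed Rplp1 in the large subunit at 240 and 209 CPM per kb. The lowest members were Rps2 at 4.88, Rps4y2 at 5.69, Rpl29 at 6.12, Rpl21 at 8.22, Rpl7a at 12.4 and Rps27l at 14.2 CPM per kb. Rplp0, Rplp1 and Rplp2, which form the stalk together, stood at 59.3, 320 and 155 CPM per kb.

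Many members have near-identical copies elsewhere in the genome, and these make the levels uncertain. The share of 50-base windows of a member's coding transcripts that also occurs in another gene's transcript ran from 0% to 85.6%, the latter in Rpl3. How reads matching several places were treated is not given in the sources used here. Rps2, a core small subunit protein, gathered 604 counts over the 10 libraries, while the row named for its copy Rps2-ps13 gathered 1714. The 105 rows named as ribosomal protein pseudogene copies held 4223 counts together, against 774487 for the members. Across 79 members the level per kb and the shared percentage were weakly related (Spearman's rho -0.13, a description over genes that share libraries).

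**Figure D1:**
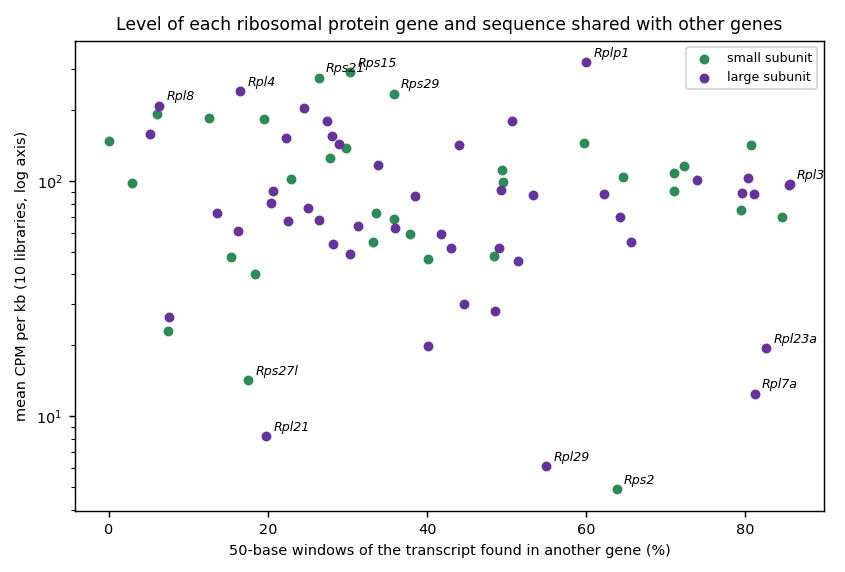
Mean CPM per kb over 10 libraries (log axis) against the percentage of 50-base windows shared with another gene, 1 point per member. Rplp1 is highest at 320 CPM per kb, and Rps2, Rpl29 and Rpl21 lie below 10 CPM per kb at very different shared percentages.

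One row goes against its name. The row named Rpl24 carries the identifier ENSMUSG00000022601, which GENCODE M21 assigns to Zbtb11, a neighbouring zinc finger gene. Its deposited span on chromosome 16, from 55966388 to 56009026 on a build that the table does not name, is far longer than a ribosomal protein gene. Its count cannot be assigned to Rpl24 alone. The row was left out of the summaries of level per kb, transcript length and GC content. It was also left out of each Spearman's rho over members that uses these or the shared windows. It was kept in the fit with the GC trend removed, whose median covers 81 members. The RefSeq start of Rpl24 is among the 71 starts counted above. The row Rps4y2 is called Rps4l in that annotation, a retrotransposed copy on chromosome 6.

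In the comparison of genotypes, 1 of the 81 members passed an adjusted p of 0.05 (edgeR's quasi-likelihood test, Benjamini-Hochberg over all 14526 genes). It was higher in the knockout, and no member was called lower, also with limma-voom (1 higher and 0 lower) and DESeq2 (3 higher and 0 lower). With edgeR, 0.213% of all tested genes were called higher, 0.964% lower and 1.18% in either direction. The edgeR share of members called in either direction, 1.23%, is therefore close to the background. Shares of all genes called with limma-voom and DESeq2 are not given here, so those member counts are not set against a background. The count of members called was 0 to 7 when single libraries were left out, with 7 without wildtype 1, where 1.56% of all genes were called, and 4 without knockout 3, where 2.31% were. The fold changes of the other members were small and mostly of one sign. The median log2 fold change was 0.12, or 8.56% higher in the knockout, against 0.00 over all tested genes, and 74 of 81 values were above 0 (51.6% of all genes were). Unadjusted p was below 0.05 and the value higher for 39 members, where 6.74% of all genes were in that state, and for 1 member in the lower direction, where 8.03% were. Members vary together between libraries, so these counts are not 81 separate observations. Nor were all tested genes matched to the members, whose median transcript length was 756 bases against 2838. Over 14142 tested genes the genotype log2 fold change had a Spearman's rho of -0.21 with transcript length and 0.25 with GC content. Over 80 members rho was -0.04 and 0.21, again as descriptions. The part of transcript length in the members' values was not tested.

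The members described next did not pass the test. Rpl13, a large subunit protein, was counted at 78.6, 76.5, 72.6, 78.3 and 70.2 CPM in wildtype and at 82.8, 86.2, 81.9, 88.0 and 88.1 CPM in knockout brains, without overlap. Its log2 fold change was 0.18 ± 0.05 (SE; edgeR adjusted p = 0.071). Rps20, a small subunit protein, was at 77.9, 81.6, 80.8, 82.4 and 78.3 CPM in wildtype and at 88.6, 92.8, 92.1, 95.0 and 83.0 CPM in knockout, where the lowest knockout value cleared the highest wildtype value by less than 1 CPM (edgeR adjusted p = 0.0771). Rpl3, which sits near the peptidyl transferase centre, averaged 123 ± 6.94 and 138 ± 3.77 CPM (SD, n = 5; edgeR adjusted p = 0.105). For Rps15 and for Rps26, which lines the exit channel of the messenger RNA, the log2 fold changes were 0.23 and 0.20 (edgeR adjusted p = 0.114 and 0.115), and the groups overlapped at wildtype 1.

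In 10 of 81 members (12.3%) all knockout libraries lay above all wildtype libraries, and in 0 they lay below. Over all genes 1.54% were so separated upward and 2.64% downward. They included Rps20 and Rpsa of the small subunit and Rpl3, Rpl4, Rpl6, Rpl13, Rpl13a, Rpl14 and Rpl37a of the large subunit, a list read off the data. Rpsa, also known as the laminin receptor precursor, was at 80.4 to 85.8 CPM in wildtype and 86.4 to 95.8 CPM in knockout brains. Rpl4 was at 350 to 362 CPM and 363 to 397 CPM. Neither passed (edgeR adjusted p = 0.149 and 0.158).

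Both subunits gave close values by genotype. The median log2 fold change was 0.13 over the 33 small subunit genes and 0.12 over the 48 large subunit genes. Of the small subunit genes 30 lay above 0 and of the large subunit genes 44. The stalk proteins Rplp0, Rplp1 and Rplp2 had log2 fold changes of 0.10, 0.16 and 0.11, and none passed (edgeR adjusted p 0.442, 0.154 and 0.504). The standard errors of single members ran from 0.04 to 0.18 with a median of 0.06.

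**Figure D2:**
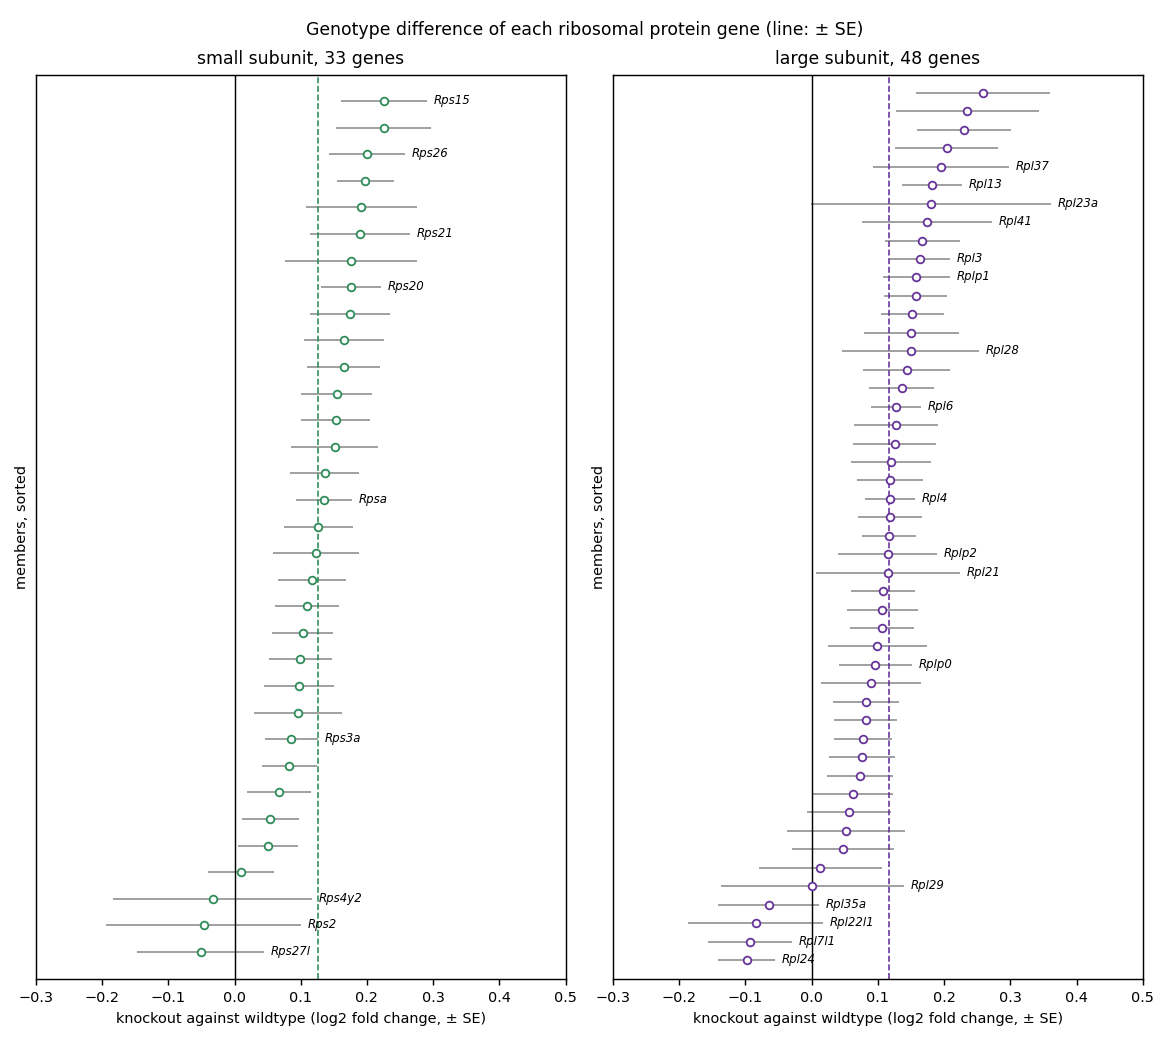
Log2 fold change of knockout against wildtype for each member, with its standard error, by subunit and sorted, with some members named at the right. Dashed lines mark the medians of 0.13 (small) and 0.12 (large), and 7 points lie below 0.

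Only 7 members lay below 0. Rpl7l1, Rpl22l1, Rps27l and Rps4y2 are the 4 paralog rows of the set, Rpl24 and Rpl35a are the 2 members on chromosome 16 with Abcc5, and Rps2 is the lowest small subunit gene. Their log2 fold changes were between -0.10 for Rpl24 and -0.03 for Rps4y2, and none passed the test (edgeR adjusted p 0.298 to 0.954). The signs of Rpl22l1, Rps27l and Rps2 turned under some alternative fits. The row named Rpl24, with the identity problem given above, was at 131, 140, 139, 133 and 148 CPM in wildtype and 130, 125, 132, 129 and 129 CPM in knockout brains. Rpl35a was at 25.2 to 29.5 CPM and 23.1 to 30.2 CPM, with full overlap.

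The paralogs differed in level from the genes they resemble, which are named here for that reason and not for their values. Per kb, Rpl22l1 reached 22.2% to 33.3% of Rpl22, an RNA-binding protein of the large subunit, depending on the library. Rpl7l1 reached 27.0% to 37.5% of Rpl7. Rps27l, a p53-responsive gene, reached 7.56% to 11.6% of Rps27, and Rps4y2 reached 2.74% to 6.39% of Rps4x. The log2 fold changes by genotype were 0.12 for Rpl22, 0.11 for Rpl7, 0.17 for Rps27 and 0.10 for Rps4x, all above the values of their paralogs, and none of the 8 genes passed the test. The difference within each pair was not tested.

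Between libraries the median of the members moved, with both subunits alike. The median member lay below its own mean in wildtype 2, 3, 4 and 5, with deviations of -0.02, -0.12, -0.07 and -0.11 on the log2 scale. It lay above its mean in wildtype 1, by 0.03, and in knockout 1 to 5, by 0.02, 0.06, 0.04, 0.13 and 0.06. By this median wildtype 1, the 1 deeper wildtype library, was the only wildtype library on the knockout side, and wildtype 3 and knockout 4 were the extremes. Single members did not all follow. Those above their own mean numbered 45, 31, 10, 7 and 9 of 81 in wildtype 1 to 5. In knockout 1 to 5 they numbered 51, 53, 59, 76 and 61. As a share of all counts the members took 0.605%, 0.588%, 0.551%, 0.568% and 0.558% in wildtype and 0.605%, 0.616%, 0.604%, 0.654% and 0.624% in knockout brains, overlapping at wildtype 1 and knockout 3.

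**Figure D3:**
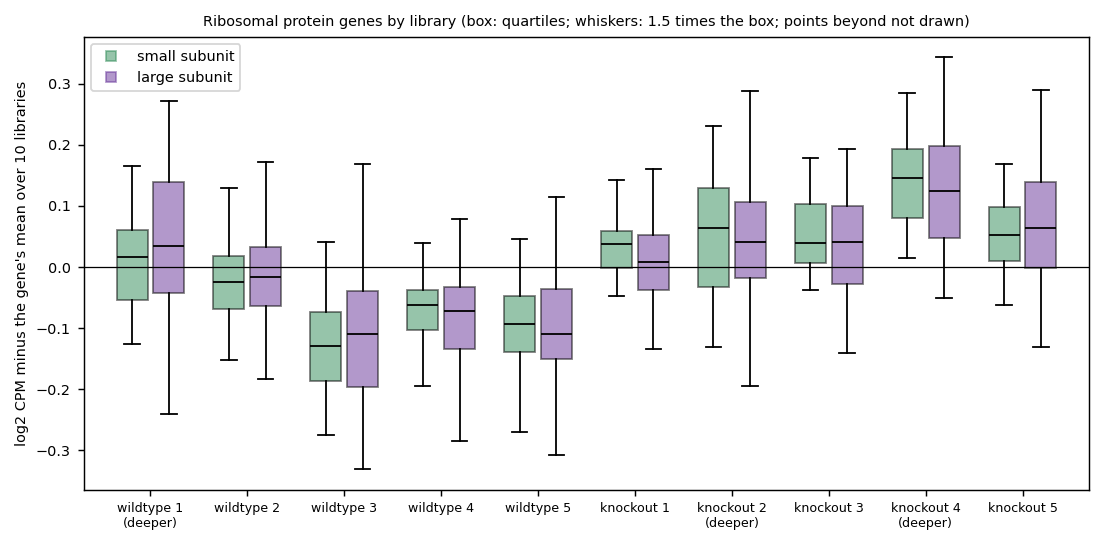
Distribution over members of log2 CPM minus the gene's mean over 10 libraries, for each library and subunit. The medians run from -0.12 in wildtype 3 to 0.13 in knockout 4, and the small and large subunit boxes move together.

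With the genotype means removed, the median correlation between pairs of members over the 10 libraries was 0.25, against 0.00 between pairs of all tested genes. It was 0.27 within the small subunit, 0.23 within the large subunit and 0.26 between them, a description of genes measured in the same libraries. The mean log2 CPM of the small subunit genes exceeded that of the large subunit genes by 0.08 to 0.12 in every library. The gap was 0.10 ± 0.01 in wildtype and 0.11 ± 0.02 in knockout brains (SD, n = 5). The median SD within groups was 0.09 on the log2 scale over the members against 0.13 over all tested genes. The 2 sets were not matched for level, so the smaller spread cannot be assigned to the family itself. Spread differed among the members. Rpl6, Rps3a and Rpl4 varied least, with SDs of 0.03, 0.04 and 0.04. Rpl23a, Rps4y2 and Rps2 varied most, with SDs of 0.36, 0.29 and 0.26.

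Depth class was compared as well. In a model with genotype and depth class, 14 of 81 members (17.3%) passed, 13 of them higher in the 3 deeper libraries and 1 lower (edgeR, adjusted over all genes). Of all tested genes 3.91% were called, with 2.06% of all tested genes higher and 1.85% lower. The 13 included Rpl23a, Rpl26, Rpl28, Rpl31, Rpl36, Rpl37, Rpl41 and Rplp2 of the large subunit and Rps15, Rps21 and Rps28 of the small subunit. Of the 13, 9 belong to the large subunit, which holds 48 of the 81 members. The median transcript length of the 13 was 509 bases, against 800.5 bases in the 66 members not called. Spearman's rho of the log2 difference with transcript length was -0.19 over 80 members and -0.20 over 14142 tested genes, again as descriptions. The median log2 difference was 0.06 over the members, 0.06 in the small and 0.07 in the large subunit, against 0.00 over all genes, and 59 members lay above 0 (50.3% of all genes did). The deeper libraries lay above all others for 23 members (28.4%, 5.26% of all genes) and below for 2 (4.83% of all genes). The classes were read from the library totals and are not the study's groups, with 1 wildtype and 2 knockout samples in the deeper one. Cell type markers were also called higher in the deeper libraries (edgeR), namely 2 of 4 for neurons, 1 of 6 for oligodendrocytes, 1 of 5 for astrocytes and 1 of 5 for blood. They were Tubb3 and Rbfox3, Mbp, Gfap and Hbb-b1, with log2 differences of 0.18, 0.19, 0.21, 0.26 and 0.45. In the same lists 1 of 4 neuronal, 1 of 5 astrocyte, 2 of 5 blood and 0 of 6 oligodendrocyte markers lay below 0. All 8 cerebellar markers lay above 0, with a median log2 difference of 0.34, and 0 were called. Knockout 3, where the cerebellar markers were very low, is not a deeper library. Of 8 microglial markers 6 lay below 0, and 0 were called. The part of these cell type markers in the members' values was not tested.

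Rpl37, a large subunit protein, was counted at 60.9 CPM in wildtype 1, 64.6 in knockout 2 and 67.2 in knockout 4, the deeper libraries. In the 7 others it was counted at 42.1 to 54.4 CPM, with no overlap. The difference of mean log2 CPM was 0.37 within each genotype. The fitted log2 difference was 0.37 ± 0.05 (SE; edgeR adjusted p = 0.017). Rpl28, whose start is shown above, was at 62.8, 62.0 and 63.5 CPM in the deeper libraries and at 42.2 to 52.3 CPM in the others, and Rpl41, the shortest protein of the ribosome, was at 85.3, 89.1 and 86.5 CPM against 59.0 to 74.4 CPM. Both passed (edgeR adjusted p = 0.017 and 0.0172), and neither had overlapping classes. The largest difference among the members was that of Rpl23a, a protein near the exit of the tunnel. It was at 14.4 ± 0.97 CPM in the 3 deeper and 9.37 ± 1.51 CPM in the 7 other libraries (SD). The log2 difference was 0.61 ± 0.11 (SE), and 82.6% of its windows were shared. Rpl23a passed with edgeR (adjusted p = 0.0281) and limma-voom but was not among the members called by DESeq2.

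Rpl22l1 was the 1 member called lower. It stood at 21.0, 20.5 and 21.3 CPM in the deeper libraries and at 24.9 to 28.1 CPM in the others, a log2 difference of -0.36 ± 0.06 (SE; edgeR adjusted p = 0.0172). Its relative Rpl22 differed by 0.01 (edgeR adjusted p = 0.944). The next lower members by p, Rpl34, Rps27l, Rps4x, Rpl35 and Rpl39, had log2 differences of -0.16, -0.20, -0.11, -0.14 and -0.11 and did not pass.

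**Figure D4:**
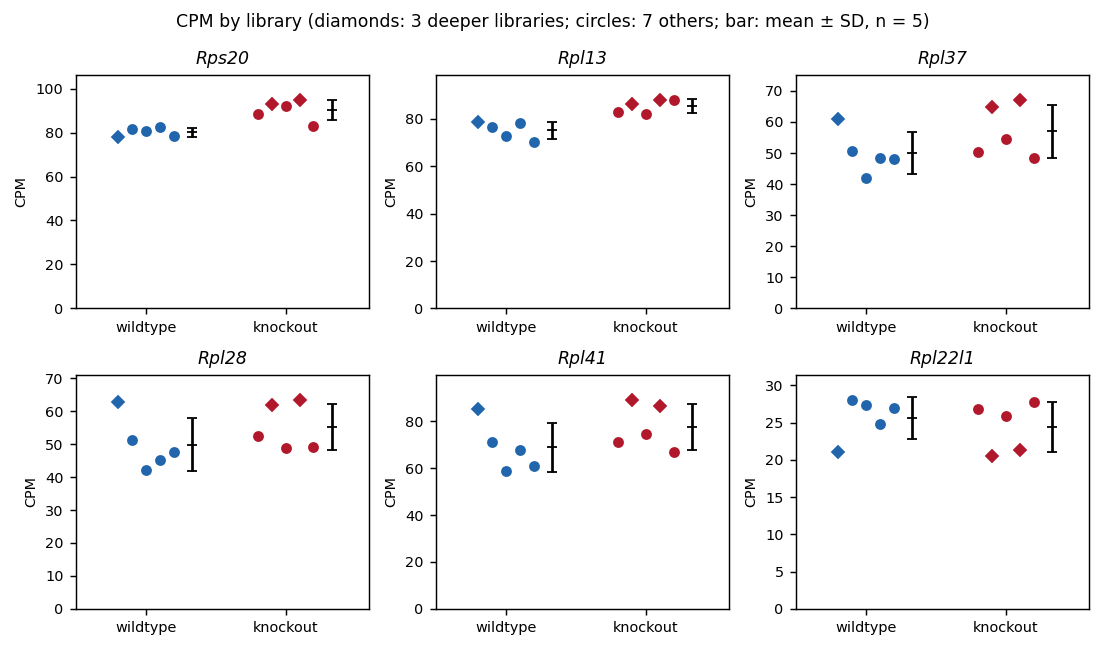
CPM of 6 members in each library, with mean ± SD (n = 5). Rps20 and Rpl13 separate by genotype, while in Rpl37, Rpl28, Rpl41 and Rpl22l1 the deeper libraries (diamonds) separate from the 7 others in both genotypes.

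GC content of the transcript moved with this difference. Over all tested genes with a known transcript, the difference between deeper and other libraries was larger at higher GC content (Spearman's rho 0.60 over 14142 genes), and over the 80 members rho was 0.40. Both are descriptions over genes that share the same libraries. Rpl28 and Rpl36 have 60.4% and 60.8% GC, the upper end of the family, and Rpl22l1 with 40.6% has the lowest. The median GC content was 52.8% in the 13 members called higher and 51.7% in the 66 not called. When the trend with GC content was removed from each library, a check added after the data were seen, 1 member remained called, Rpl37 (log2 difference 0.40, edgeR adjusted p = 0.0247), and 4 of all genes, or 0.0283%. The median over members was then 0.06, as before. No member was called when any 1 of the deeper libraries was left out, 6 and 5 were called without wildtype 3 and wildtype 5, and 22 without knockout 3. The shares of all genes called in these fits are not given here, so these counts are not set against a background.

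**Figure D5:**
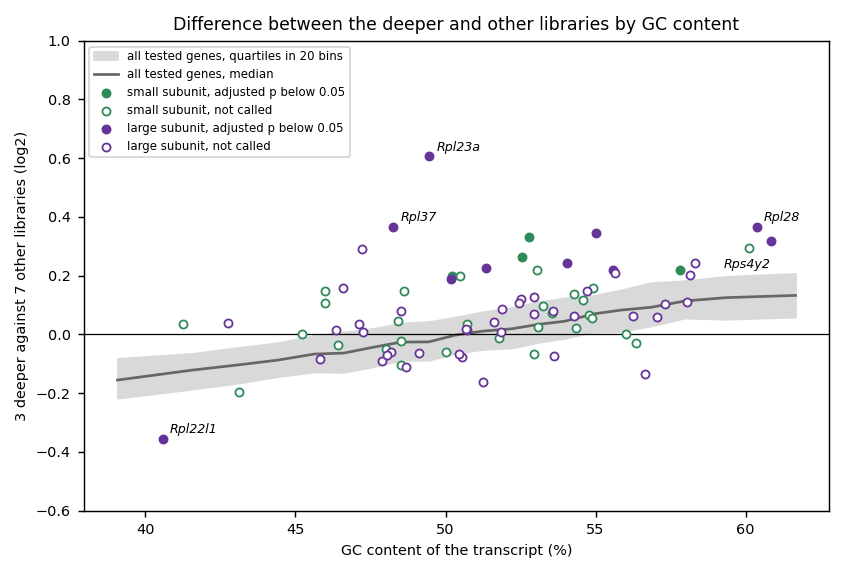
Log2 difference between the 3 deeper and the 7 other libraries against GC content of the transcript, members as points over the median and quartiles of all tested genes in 20 bins. The grey median rises with GC content, and Rpl23a and Rpl37 lie far above it while Rpl22l1 lies below it.

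No member showed a detectable interaction of depth class and genotype. For that term 0 members and 0 of all genes passed (0%; edgeR), and 0 members passed with limma-voom or DESeq2. Without adjustment 2 members were below 0.05, Rpl21 and Rpl36, where 3.14% of all genes were, and DESeq2 gave 0. Within the 7 other libraries the median difference between knockout and wildtype members was 0.12 with 75 of 81 above 0, and within the 3 deeper libraries it was 0.07 with 61 of 81 above 0. The latter sets 2 knockout samples against 1 wildtype sample and has no replicate check on the wildtype side. Fitted with depth class as a term, the median genotype log2 fold change was 0.10, and 2 members passed, Rps15 among them. The share of all genes called in that fit is not given here.

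Genes that work with the ribosome were read from lists in the same way, with 0 calls by genotype in the 6 lists of nuclear genes (edgeR). Limma-voom called 1 gene of those lists, Mrpl52, and DESeq2 called 0. Unadjusted p was below 0.05 for 1 ribosomal gene outside the name patterns, 5 ribosome assembly genes, 6 genes with a terminal oligopyrimidine tract, 3 of the mTOR pathway, 0 of RNA polymerase I and 10 mitochondrial ribosomal genes, where 14.8% of all tested genes were. Without knockout 3, 2 genes of these lists passed, Mrpl52 higher and Deptor lower, and without wildtype 1 Mrps34 passed as higher. Of 4 ribosomal genes outside the name patterns, 3 lay above 0. Fau, a ubiquitin-like fusion that yields a small subunit protein, was at 54.0 ± 4.69 and 61.0 ± 6.46 CPM (SD, n = 5; edgeR adjusted p = 0.275), and Gnb2l1, the scaffold protein Rack1, had a log2 fold change of 0.08. Of 49 ribosome assembly genes 26 lay above 0 and the median was 0.00. Heatr1 and Nop58, both needed for early ribosomal RNA processing, were at -0.20 and -0.22 on the log2 scale (edgeR adjusted p = 0.127 and 0.147). Of 20 translation factors and other genes known for a terminal oligopyrimidine tract, 14 lay above 0, with a median of 0.05. Eif3f and Eef1b2 came closest, at 0.13 and 0.11 (edgeR adjusted p = 0.142 and 0.224).

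Of 26 genes of the mTOR pathway 9 lay above 0 and the median was -0.03. Larp4 and Deptor, the latter an inhibitor of mTOR, had the smallest p, with log2 fold changes of -0.19 each (edgeR adjusted p = 0.155 and 0.229). Of 21 genes of RNA polymerase I and its factors 8 lay above 0, and Polr2e and Myc came first at 0.13 and 0.27 (edgeR adjusted p = 0.364 and 0.476). Ribosomal proteins of the mitochondrion, which form another ribosome, had a median of 0.03 over 75 tested genes, with 43 above 0. Mrpl52 and Mrps6 had the smallest p there, with log2 fold changes of 0.32 and -0.24 (edgeR adjusted p = 0.0579 and 0.17).

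Transcripts outside the nuclear ribosomal and pathway lists are given beside the members. All 12 tested protein genes of the mitochondrial genome lay above 0, with a median of 0.18, and 1 passed, mt-Nd5, at 3391 ± 181 and 4020 ± 303 CPM (SD, n = 5; edgeR adjusted p = 0.034). Together they took 4.97% to 5.33% of counts in wildtype and 5.14% to 6.45% in knockout libraries, the highest in knockout 3. Without knockout 3, 3 of the 12 passed, without knockout 5, 5, and in the other libraries left out singly 0 to 2. All 8 microglial markers lay above 0 and 2 passed, C1qc and C1qb (log2 fold changes 0.52 and 0.34, edgeR adjusted p = 0.00437 and 0.0378). Without knockout 3 or without wildtype 1 C1qa passed too, and without any 1 of the others C1qc alone did. The 8 summed to 225 to 243 CPM in wildtype and 261 to 312 CPM in knockout brains, and none was at 0 in any library. All 5 blood markers lay above 0 and 0 passed with edgeR, limma-voom or DESeq2 (2 below an unadjusted 0.05 with edgeR), with sums of 53.5 to 87.5 CPM and 69.8 to 101 CPM, and in the deeper libraries they summed to 87.5 to 101 CPM. All 5 meningeal markers lay below 0, with a median of -0.22 and sums of 78.9 to 89.2 CPM in wildtype and 59.6 to 85.8 CPM in knockout brains. With edgeR and limma-voom 0 of them passed, with 2 below an unadjusted 0.05, and DESeq2 called Col3a1 lower. Col3a1 and Dcn had log2 fold changes of -0.48 and -0.26 (edgeR adjusted p = 0.0522 and 0.186), and Col3a1 passed as lower without wildtype 5, knockout 2 or knockout 3. The part of these in the members' values was not tested. Without knockout 3 the members' median was 0.13 and 4 members passed.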

How the data were processed

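Whole-brain RNA of 5 wildtype and 5 Abcc5-knockout FVB/NJ mice was sequenced after oligo-dT selection with a kit that, per the labels' protocols, was TruSeq RNA version 2; that kit does not mark strand, so a gene and an antisense partner cannot be told apart. The authors deposited raw counts per Ensembl gene and library in 1 table. Per the submitters' processing notes TopHat2 2.0.6, HTSeq, edgeR and limma were used; how each was set, and the build aligned to, is not given in the sources used here. The authors' deposited adjusted p-values and log2 fold changes, per the file headers, sit in the same table. By the authors' deposited table, no member was below 0.05 (0 of 81), and 74 members had a log2 fold change above 0. A further 10 per-library columns of normalized values had lost their decimal points and were not used.

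Genes were kept with edgeR's filterByExpr (10 counts in about 1 group of libraries, at least 15 in all) and scaled with TMM factors (0.982 to 1.01). Fits used edgeR 4.0.16 quasi-likelihood tests over all genes kept (R 4.3.3), with limma 3.58.1 and DESeq2 1.42.0 as alternatives. The genotype fit held genotype only, the depth fit genotype and depth class (the 3 libraries of at least 19795743 counts against the 7 others), and the interaction fit both and their product. Standard errors are the fold change divided by the square root of the F statistic. The code was tested on simulated counts. CPM uses TMM-scaled library sizes, and log2 CPM for spreads and correlations a prior count of 2. Transcript length and GC content come from the shortest coding transcript with the longest coding sequence in the GENCODE M21 basic set. Genes without such a transcript used all their transcripts. Shared 50-base windows come from all coding transcripts of a member in the basic set. Promoter sequence comes from RefSeq, and neither source was used for coordinates of the deposited table. Replicate pairs of a group differed by 1.29 to 12.8 times the sampling variance, so no pair within a group differed by sampling alone. A second library from the same brain could also exceed the sampling variance, and pairs across groups were not compared. Intervals and spreads come from few libraries.

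The members, the gene lists and the comparisons were chosen with earlier results of these data known. Named members were those called by genotype, the 6 smallest p in each direction for genotype and for depth class, the 3 highest and 3 lowest per kb of each subunit, the 3 most and least variable, the paralogs, the stalk proteins, Rpsa, those on chromosome 16, and from each list the called genes and the 2 smallest p. Other scalings, filters and tools, the replicate number as a block, a GC correction and leaving out single libraries were tried. Results for some members are not reported here.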

Additional observations from a re-analysis of the deposited data

Results flagged for a closer look

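Among 78 groups of 5 values examined for a sample far from the others, 4 held one, and chance gives about 1 in 20. Rps15 was at 154 CPM in wildtype 1, with the next wildtype library at 132 CPM. Rplp1 was at 163 CPM in wildtype 1, with the next at 149 CPM. Wildtype 1 is the 1 deeper wildtype library. Rps4y2 was at 3.01 CPM in knockout 1, with the next knockout library at 5.14 CPM, and this row had as few as 26 counts in a library. The summed cerebellar markers were at 87.3 CPM in knockout 3, with the next knockout library at 1016 CPM.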

How the results depend on the processing

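The members' median genotype log2 fold change kept its sign in all 22 alternatives, between 0.10 and 0.14, and Abcc5 was called in all of them. The count of members called by genotype, 1, was 0 with total-count scaling, without the low-count filter, with the replicate block and in the 7 shallower libraries, 2 with a depth class term, and 3 with DESeq2 and with the GC trend removed; leaving out single libraries gave 0 to 7 (7 without wildtype 1, 4 without knockout 3). Members called by depth class, 14, became 18 with limma-voom, 20 with DESeq2 and 0 with the replicate block. They became 1 with the GC trend removed and 0 to 22 with single libraries left out. More than 14 were called without the low-count filter. Without the filter, depth calls over all genes were 858 and with DESeq2 1093. For fits without an all-gene value in the text, the members' counts are not set against a background. Same-numbered samples correlated at -0.14 to 0.09, and only wildtype 3 had its own number as its best match. Correlations of this size over few libraries cannot exclude pairing. Genotype calls over all genes under the replicate block were 90 against 171. The interaction gave 0 members in every fit, and could not be fitted without wildtype 1. Calls in the 6 nuclear gene lists and the mitochondrially encoded genes, 1, were 2 with upper-quartile or total-count scaling and 0 to 5 with single libraries left out (5 without knockout 3 and without knockout 5). Rpl22l1 turned to 0.00589 and Rps27l to 0.0595 in the 7 shallower libraries, and Rpl22l1 to 0.000433 with a depth class term; with single libraries left out Rps27l ran from -0.0952 to 0.00825 and Rps2 from -0.123 to 0.0438. The cause was not tested. Rows of under 100 counts, such as Rps2, are limited by depth.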
